A study of Rattus norvegicus with 12 samples.

Results

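Transcripts of 9 genes of profibrotic signalling and matrix turnover were followed in rat kidney cortex. The genes were Ccn2 (older name Ctgf), Ccn1 (older name Cyr61), Thbs1, Timp1, Tgm2, Plat, Plau, Mmp2 and Mmp14, and every probe set whose array annotation names 1 of them alone was taken. This gave 12 probe sets for 8 genes, of 31099 probe sets on the array. Thbs1, named by no such probe set, is not analysed here. Tgm2, Plau, Mmp14 and Mmp2 each had 2 probe sets, and the brighter of each pair stands for its gene unless stated otherwise. The dimmer Mmp2 probe set lay below the limit set for dim probe sets, with signals between 6.46 and 118, so 11 of the 12 probe sets were tested.

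The 12 arrays form 4 groups of 3, all from male littermates with free access to food and water. Diabetic rats received 65 mg/kg of streptozocin, which destroys the beta cells of the pancreas, into a vein, and insulin palmitate pellets 3 days later. Nondiabetic rats received vehicle and palmitate vehicle pellets. Injection was at 4 weeks of age for the groups examined at 10 weeks and at 14 weeks for the groups examined at 20 weeks, so each group was examined after 6 weeks, with diabetes begun before or after puberty. Blood glucose of the diabetic rats is given as 350 to 450 mg/dl in the sample labels, and the study description names only 350. Every diabetic rat had both streptozocin and, by design, an insulin pellet, no nondiabetic rat had either, and the contributions of these treatments and of high glucose cannot be told apart. The label of diabetic replicate 1 at 10 weeks names a vehicle pellet, and nondiabetic replicate 1 at 20 weeks had the highest Gapdh control ratio of 3' to 5' signal (2.086, against 1.408 to 1.755 on the others), which rises with RNA degradation. These are the 2 doubted arrays. The same ratio of the actin control was highest on diabetic replicate 2 at 20 weeks (11.365), followed by that nondiabetic array (11.195) and diabetic replicate 3 at 20 weeks (9.999), with 6.296 to 8.568 on the other 9. The labels do not tie arrays to rats, so a p-value reflects only how much these samples vary, which may be technical.

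Kidney fibrosis is an imbalance between the deposition and the removal of extracellular matrix. Thbs1 can release TGF-beta from its latent complex, and TGF-beta and mechanical tension raise Ccn2 and Ccn1, secreted matricellular proteins that modulate adhesion and matrix synthesis. Tgm2, tissue transglutaminase, cross-links matrix proteins and makes them harder to digest. On the removal side, Plau (urokinase) and Plat (tissue plasminogen activator) turn plasminogen into plasmin, and the collagenase Mmp14 sits in the cell membrane and activates the gelatinase Mmp2. Timp1 inhibits metalloproteinases. Ccn2 is a common marker of diabetic kidney disease, and urokinase is made in large amounts by renal tubules.

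Promoters of Ccn2, Ccn1, Timp1 and Plau are shown because Ccn1 and Ccn2 are classical targets of the TEAD factors, the DNA-binding partners of the tension-sensitive coactivators YAP and TAZ, and because SMAD factors carry the TGF-beta signal to the genome. They are the 250 bases before the RefSeq transcription start of the GRCr8 assembly, all on the minus strand and written in the direction of transcription. Positions are Ccn2 chr1:22624615-22624864, Ccn1 chr2:237225690-237225939, Timp1 chrX:3771123-3771372 and Plau chr15:3511988-3512237. Capitals mark the TEAD core motif GGAATG (read as CATTCC on the other strand) in Ccn2, Ccn1 and Timp1, and the palindromic SMAD motif GTCTAGAC in Plau.
Ccn2: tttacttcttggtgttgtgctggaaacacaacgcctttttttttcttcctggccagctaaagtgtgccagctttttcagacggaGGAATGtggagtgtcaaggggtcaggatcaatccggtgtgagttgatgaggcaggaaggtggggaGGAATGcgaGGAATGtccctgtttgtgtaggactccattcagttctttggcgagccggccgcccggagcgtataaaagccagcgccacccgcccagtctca
Ccn1: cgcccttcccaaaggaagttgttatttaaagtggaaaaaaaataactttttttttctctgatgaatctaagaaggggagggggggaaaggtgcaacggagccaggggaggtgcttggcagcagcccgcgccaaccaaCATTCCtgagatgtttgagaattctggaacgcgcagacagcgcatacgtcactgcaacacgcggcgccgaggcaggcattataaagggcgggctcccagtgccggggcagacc
Timp1: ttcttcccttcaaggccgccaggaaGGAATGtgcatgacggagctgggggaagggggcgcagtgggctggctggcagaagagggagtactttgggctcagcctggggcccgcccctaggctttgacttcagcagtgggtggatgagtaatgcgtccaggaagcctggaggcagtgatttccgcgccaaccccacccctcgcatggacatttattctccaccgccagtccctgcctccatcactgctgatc
Plau: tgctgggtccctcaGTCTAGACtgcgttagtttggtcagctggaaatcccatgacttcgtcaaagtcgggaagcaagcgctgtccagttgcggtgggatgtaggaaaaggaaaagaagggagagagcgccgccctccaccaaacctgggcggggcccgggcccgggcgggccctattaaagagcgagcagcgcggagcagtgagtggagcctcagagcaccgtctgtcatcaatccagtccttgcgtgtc
The Ccn2 window holds 3 matches to GGAATG, which begin 166, 101 and 92 bases before the start, and the windows of Ccn1 and Timp1 hold 1 each, at 113 and 225 bases. At least 1 match occurred in 12.1% of the 33469 promoter windows of the same length in the RefSeq table, and at least 3 occurred in 0.0807%. The SMAD match in Plau begins 236 bases before the start, and 0.173% of windows held that motif. SMAD sites were sought only as this full palindrome, and shorter SMAD elements were not sought. The windows of Ccn2, Ccn1 and Timp1 are therefore not shown to lack SMAD elements. The AP-1 motif TGANTCA, present in 6.34% of windows, was found in none of these 4. Matches were sought on both strands, the 3 motifs do not overlap one another in these windows, and a match of letters is no evidence that a factor binds.

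**Figure D1:**
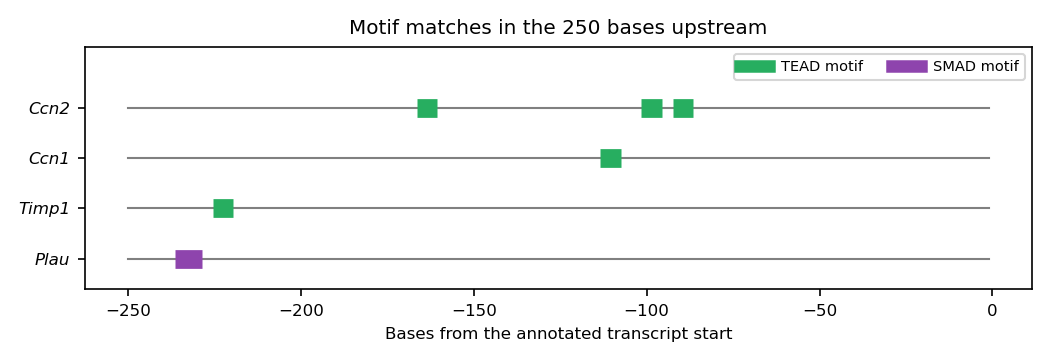
Position of the motif matches in the 250 bases before the transcription start (x axis, bases upstream of the start) of Ccn2, Ccn1, Timp1 and Plau (1 line each). Ccn2 carries 3 TEAD matches, Ccn1 and Timp1 carry 1 each, and Plau carries the match to the full SMAD palindrome at 236 to 229 bases. Shorter SMAD elements were not sought.

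Ccn2 was higher in diabetic than in nondiabetic cortex at 20 weeks, and no difference was called at 10 weeks. Its signals in the 20-week diabetic arrays were 5208, 5409.8 and 5447, against 4104, 2869 and 3229 in the nondiabetic arrays of that age. The 3 diabetic arrays at 20 weeks were also the brightest of all 12, a pattern shared by 2.89% of the probe sets tested. At 10 weeks the signals were 2280.1, 3097 and 2349 in diabetic rats and 2298, 2513 and 3306 in nondiabetic rats, and these groups overlapped. All differences are on the log2 scale, with the standard error (SE) of 1 limma model fitted to all 12 arrays, and "called" means an adjusted p (Benjamini-Hochberg, over the 18625 probe sets tested) under 0.05. The Ccn2 difference of diabetic minus nondiabetic rats at 20 weeks was 0.67 ± 0.16 (95% interval 0.33 to 1.01, 1.59-fold, adjusted p = 0.0421). At 10 weeks it was -0.07 ± 0.16 (adjusted p = 0.916). The change in the difference with age, tested as the interaction, was 0.74 ± 0.22 with an unadjusted p of 0.00592 and an adjusted p of 0.495, so a dependence on age was not called.

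The Ccn2 call at 20 weeks lay close to the threshold. It was made in 11 of 23 alternative settings, over which the difference ran between 0.56 and 0.81. It was lost under median scaling (adjusted p = 0.0616) and with no filter on dim probe sets (0.0543). The call was also lost without intensity trend (0.106) and with the replicate number as a block (0.0703). Leaving out 1 array removed it for any diabetic array at 20 weeks (adjusted p 0.0923, 0.119 and 0.125 without replicates 1, 2 and 3), for nondiabetic replicates 2 and 3 at that age (0.157 and 0.094), for diabetic replicates 1 and 3 at 10 weeks (0.05 and 0.0575) and for nondiabetic replicate 2 at 10 weeks (0.0586). Without both doubted arrays the difference was 0.81 and the call was kept (adjusted p = 0.0314). In that fit the Gapdh ratio also separated the 20-week groups, at 1.42 and 1.544 in nondiabetic and 1.597 to 1.755 in diabetic arrays. Diabetes and RNA quality cannot be told apart there.

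Ccn2 was higher at 20 than at 10 weeks in diabetic rats. Its signal averaged 5355 ± 129 at 20 weeks and 2575 ± 453 at 10 weeks in diabetic cortex (SD, n = 3 arrays each), against 3401 ± 635 and 2706 ± 531 in nondiabetic cortex. The difference of 20 minus 10 weeks was 1.07 ± 0.16 in diabetic rats (2.1-fold, adjusted p = 0.0157) and 0.33 ± 0.16 in nondiabetic rats (adjusted p = 0.593). The comparison by age in diabetic rats was added after the Ccn2 values had been seen, and 0.66% of all probe sets were called in it. Ccn2 was the only one of the 11 tested probe sets of these genes among them. The Gapdh ratio moved with this comparison, at 1.597 to 1.755 in the diabetic arrays at 20 weeks and 1.442 to 1.495 in those at 10 weeks, and with this ratio as a covariate the difference was 0.90 and no longer called (adjusted p = 0.0948). The call was also lost without diabetic replicate 1 or 3 at 10 weeks (0.0556 and 0.0904) or diabetic replicate 2 or 3 at 20 weeks (0.0733 and 0.0622).

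**Figure D2:**
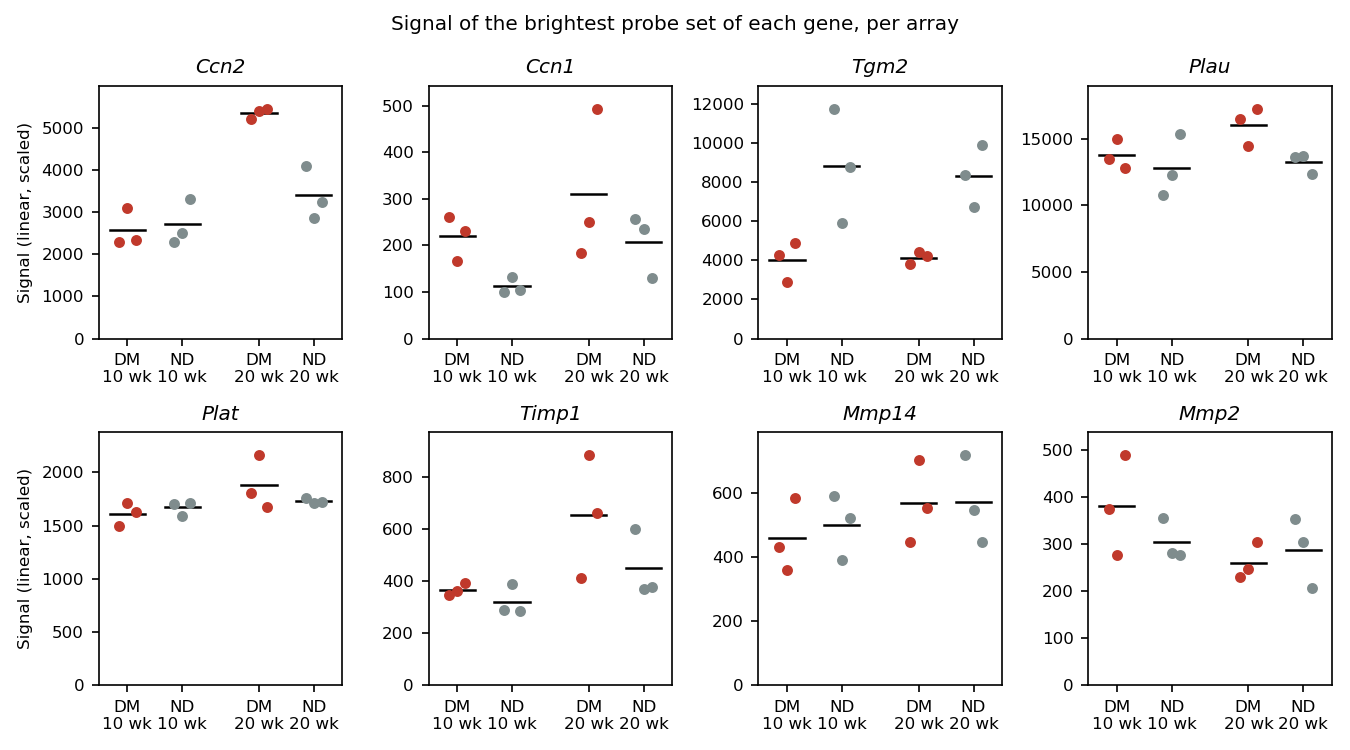
Linear signal (y axis, scaled units) of the brightest probe set of each of the 8 measured genes on each of the 12 arrays, with diabetic groups left of their nondiabetic groups and 10 weeks before 20 weeks; points are arrays and bars are group means. The Ccn2 signals of 20-week diabetic rats lie between 5208 and 5447, above every other array, and Tgm2 is lower on all 6 diabetic arrays than on any nondiabetic array.

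Ccn1, the close relative of Ccn2, had a different profile and no call. In 10-week cortex its signals were 260.0, 166 and 231 in diabetic rats and 99.5, 132 and 105 in nondiabetic rats. The groups did not overlap, as for 7.47% of probe sets in this direction at that age. The difference was 0.95 ± 0.35 with an adjusted p of 0.325. At 20 weeks the signals were 184, 251 and 493 in diabetic rats, against 257, 234 and 129.9 in nondiabetic rats, which overlapped, and the difference was 0.51 ± 0.35 (adjusted p = 0.504). The mean difference over both ages was 0.73 ± 0.25 (adjusted p = 0.128), and the change with age was -0.44 ± 0.49 (adjusted p = 0.845). Ccn1 was dim beside Ccn2 on the array, but signals of different probe sets are not comparable as transcript levels.

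Tgm2, the matrix cross-linker, was lower in diabetic cortex over both ages together, with the largest mean difference of the 11 tested probe sets. Its brighter probe set gave 4292, 2883 and 4907 in diabetic rats at 10 weeks, against 11747, 5916 and 8763 in nondiabetic rats. At 20 weeks it gave 3796, 4413 and 4211 in diabetic rats, against 8373, 6730.3 and 9900.4 in nondiabetic rats. All 6 diabetic arrays lay below all 6 nondiabetic arrays, which held for 1.44% of the probe sets tested. The mean difference over both ages was -1.05 ± 0.17 (95% interval -1.41 to -0.69, adjusted p = 0.00372), a signal 2.07-fold lower in diabetic rats. By age the differences were -1.11 ± 0.24 at 10 weeks (adjusted p = 0.0848) and -0.99 ± 0.24 at 20 weeks (adjusted p = 0.0428).

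The dimmer Tgm2 probe set followed the brighter one, with a Pearson correlation of log2 signals of 0.94 over the 12 arrays, which share the group differences. It gave 674, 332 and 728 in diabetic rats at 10 weeks and 1558, 689 and 1250.1 in nondiabetic rats, where diabetic replicate 3 lay above nondiabetic replicate 2. At 20 weeks it gave 322, 520.2 and 502 in diabetic rats and 994, 890.0 and 1005 in nondiabetic rats, with no overlap, as for 10.9% of probe sets in this direction. Its mean difference over both ages was -1.07 ± 0.23 (adjusted p = 0.0191). The change of the Tgm2 difference with age was 0.11 ± 0.33 by the brighter and -0.12 ± 0.46 by the dimmer probe set, and neither was called (adjusted p = 0.95 and 0.963).

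The lower Tgm2 signal over both ages was called by the brighter probe set in all 22 alternatives run (adjusted p 0.0021 to 0.0211), and by the dimmer one in 20 of 22. The exceptions were a variance estimate without intensity trend (adjusted p = 0.0517) and a fit without both doubted arrays (-1.14, adjusted p = 0.0528). The 20-week call of the brighter probe set was weaker: it was made in 10 of 23 alternatives, with differences of -1.14 to -0.86. It was lost without any 1 of the 6 arrays of that age (adjusted p 0.0581 to 0.12), without diabetic replicate 1 at 10 weeks (0.0563) or without nondiabetic replicate 3 at 10 weeks (0.0526).

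Tgm2 is strongly expressed in endothelium, and endothelial markers stood lower at 20 weeks. The summed signal of the 6 measured of 7 endothelial markers was 7660.4 to 8321 in diabetic arrays and 8928 to 10302 in nondiabetic arrays at 20 weeks, and 8199.6 to 9019 in diabetic and 8635 to 10271 in nondiabetic arrays at 10 weeks, where the ranges overlapped. Of single probe sets, 10.9% lay lower without overlap at 20 weeks. Vwf, the von Willebrand factor of endothelial cells, was the 1 of these 6 markers called at 20 weeks (-1.99 ± 0.49, adjusted p = 0.0482). At that age 2.84% of all probe sets were called. The Vwf signals of nondiabetic rats there ran from 304 to 1329, with a mean of 762, against a mean of 164 in diabetic rats. Part of the gap between the endothelial sums at 20 weeks is thus that of Vwf. Its difference was -1.58 ± 0.49 at 10 weeks (adjusted p = 0.241) and -1.78 ± 0.34 over both ages (adjusted p = 0.0114). The other 5 were also below 0 at 20 weeks without a call, Pecam1 at -0.36 ± 0.18 (adjusted p = 0.327), which at 10 weeks stood at 0.40 ± 0.18 (adjusted p = 0.44). Markers of podocytes, the filter cells of the glomerulus, also stood lower. The summed signal of 5 measured of 6 was 4512 to 5030.2 in diabetic and 5526 to 6000.3 in nondiabetic arrays at 20 weeks, and 4681 to 6121 in diabetic and 5970.2 to 6705 in nondiabetic arrays at 10 weeks, where the ranges overlapped. All 5 were below 0 at both ages, and the slit diaphragm gene Nphs1 (-0.48 ± 0.10, adjusted p = 0.0157) and the podocyte phosphatase Ptpro (-0.40 ± 0.10, adjusted p = 0.0339) were called lower over both ages. Of all probe sets, 2.34% were called lower over both ages. None of these endothelial and podocyte markers lay below the dim limit. The part of these markers in the Tgm2 result was not tested. In a bulk sample, fewer cells of a type and less RNA per cell cannot be told apart.

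**Figure D3:**
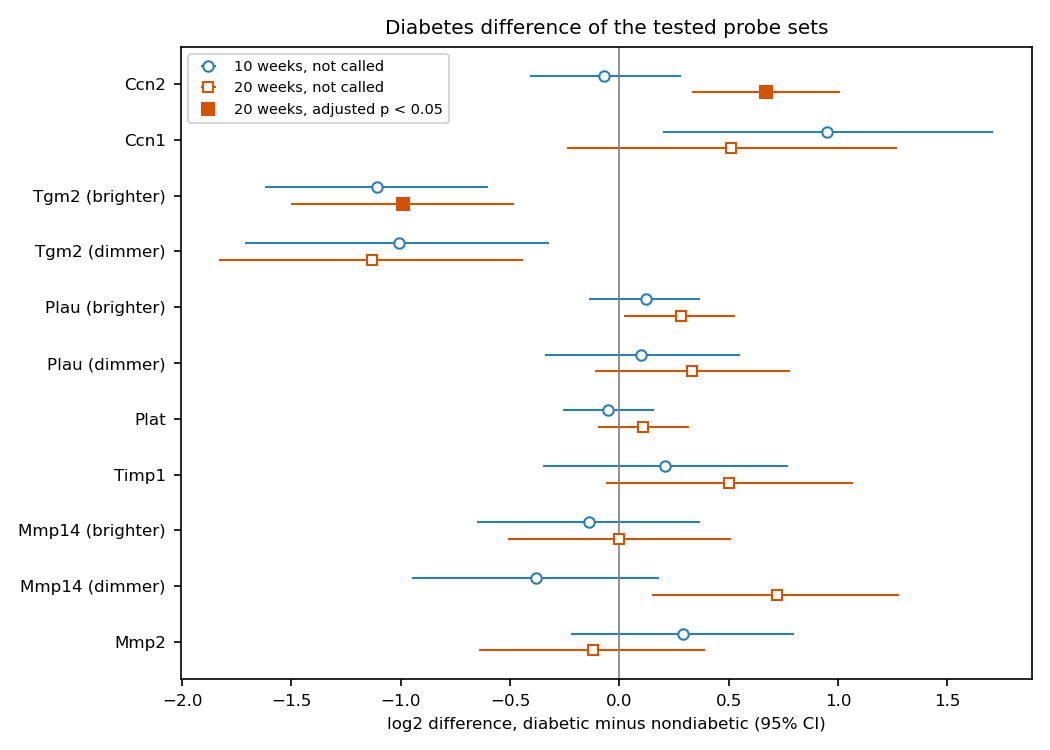
Log2 difference of diabetic minus nondiabetic rats (x axis, with 95% interval) for the 11 tested probe sets at 10 weeks (circles) and 20 weeks (squares); filled symbols have an adjusted p under 0.05. The filled symbols are Ccn2 at 0.67 and the brighter Tgm2 probe set at -0.99, both at 20 weeks.

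The plasminogen activators showed small differences and no call. Plau was the brightest of these probe sets, with 16501, 14479.8 and 17256 in diabetic rats at 20 weeks, against 13622, 13756 and 12373 in nondiabetic rats. The diabetic arrays lay above the nondiabetic ones at that age, as did 10.1% of probe sets. The difference was 0.28 ± 0.12 (95% interval 0.02 to 0.53, adjusted p = 0.258). At 10 weeks the Plau signals of 13510.1, 14978 and 12836 in diabetic rats and 10763, 12269.5 and 15355 in nondiabetic rats overlapped, and the difference was 0.12 ± 0.12 (adjusted p = 0.76). The dimmer Plau probe set correlated at 0.69 with the brighter one and differed by 0.33 ± 0.21 at 20 weeks (adjusted p = 0.45). Plat gave 1804, 2160.2 and 1676 in diabetic rats and 1761, 1709 and 1724 in nondiabetic rats at 20 weeks, which overlapped. Its differences of -0.05 ± 0.10 at 10 weeks and 0.11 ± 0.10 at 20 weeks have 95% intervals of -0.26 to 0.16 and -0.10 to 0.32.

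Timp1, the inhibitor, varied most among the 20-week diabetic arrays. Its signals there were 409, 882 and 663, against 601, 369 and 378 in nondiabetic rats, and the groups overlapped. At 10 weeks they were 345, 359.5 and 393 in diabetic rats and 289, 388 and 283 in nondiabetic rats. The diabetes difference was 0.50 ± 0.26 at 20 weeks (95% interval -0.06 to 1.07, adjusted p = 0.354) and 0.21 ± 0.26 at 10 weeks (adjusted p = 0.82). Every diabetic array at 20 weeks exceeded every diabetic array at 10 weeks, as for 11.6% of probe sets, and that age difference was 0.76 ± 0.26 (adjusted p = 0.22). In nondiabetic rats the age difference was 0.47 ± 0.26 (adjusted p = 0.626).

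The 2 probe sets of the collagenase Mmp14 gave different patterns. The brighter one had 446, 703 and 555 in diabetic rats and 718, 549 and 447 in nondiabetic rats at 20 weeks, a difference of 0.00 ± 0.24 (95% interval -0.51 to 0.51). The dimmer one had 195, 194 and 178 in diabetic rats and 125, 110.0 and 110.3 in nondiabetic rats at 20 weeks, with no overlap, as for 10.1% of probe sets in this direction, and a difference of 0.72 ± 0.26 (adjusted p = 0.184). At 10 weeks the dimmer probe set gave 77.9, 169.9 and 137 in diabetic rats and 185, 153 and 143 in nondiabetic rats. Its difference there was -0.38 ± 0.26, and its change with age was 1.10 ± 0.37, with an unadjusted p of 0.011 and an adjusted p of 0.517. Across the 12 arrays the Mmp14 probe sets correlated at 0.14, so they give no common profile. Mmp2, which Mmp14 activates, gave 229.8, 246 and 303 in diabetic rats and 352, 303 and 207 in nondiabetic rats at 20 weeks, and 374, 276 and 487 in diabetic rats and 355, 280.2 and 276 in nondiabetic rats at 10 weeks. Its groups overlapped at both ages, with differences of -0.12 ± 0.24 (adjusted p = 0.843) and 0.29 ± 0.24 (adjusted p = 0.703). Its 2 probe sets correlated at 0.08.

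**Figure D4:**
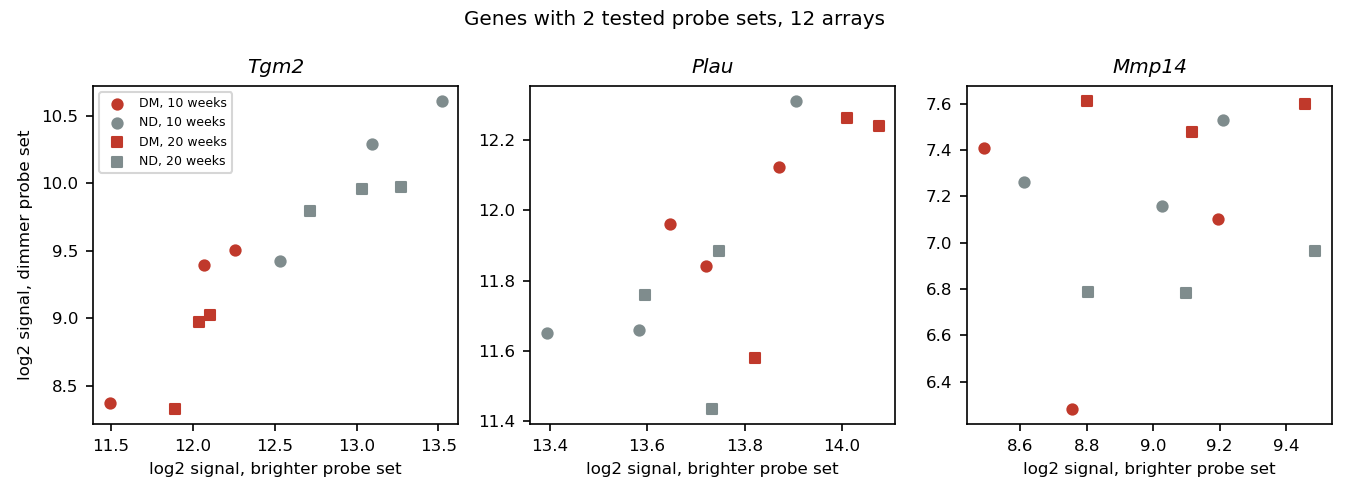
Log2 signals of the dimmer (y axis) against the brighter probe set (x axis) of Tgm2, Plau and Mmp14, with 1 point for each of the 12 arrays, red for diabetic and grey for nondiabetic rats. The pairs of Tgm2 and Plau rise together (Pearson r of 0.94 and 0.69), and the points of Mmp14 are scattered (0.14).

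Over all 11 tested probe sets, 0 were called at 10 weeks, where limma called 0.306% of all probe sets, and 3 of 11 had an unadjusted p under 0.05, against 10.9% of all. At 20 weeks 2 were called, Ccn2 higher and Tgm2 lower, against a background of 2.84%, and 5 had an unadjusted p under 0.05, against 16.8%. The mean over both ages had 2 calls, both Tgm2 probe sets and both lower, where 4.47% of all probe sets were called and 2.34% were called lower, and 5 of 11 had an unadjusted p under 0.05, against 17.9%. The interaction had 0 calls among these 11 and 0 among all 18625 (0%), with 2 and 1480 at an unadjusted p under 0.05 (7.95% of all). Age in nondiabetic rats also had 0 calls among the 11 and 0 among all (0%), with 1 and 1603 at an unadjusted p under 0.05 (8.61% of all). The 11 hold 2 probe sets each for Tgm2, Plau and Mmp14. With 1 probe set a gene, 2 of 8 genes had an unadjusted p under 0.05 at 10 weeks, 3 at 20 weeks and 4 over both ages. The median difference of the 8 genes was 0.03 at 10 weeks and 0.19 at 20 weeks, beside -0.02 and 0.00 over all probe sets tested. At 20 weeks 5 of the 8 genes lay above 0 and 3 below.

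The genes did not share 1 profile. Over the 12 arrays Ccn2 correlated with Plau at 0.75, with Timp1 at 0.75, with Plat at 0.69 and with Ccn1 at 0.47. Tgm2 correlated at -0.31 with Ccn2, -0.53 with Ccn1, -0.62 with Plau, -0.33 with Timp1, -0.05 with Plat, 0.02 with Mmp2 and 0.37 with Mmp14. Mmp2 correlated at -0.53 with Ccn2. These are descriptions of arrays that share the same 4 groups.

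Around these genes, the plasminogen list held 11 receptors, inhibitors and partners, of which 6 were tested. At 20 weeks 3 of the 6 were called higher and 0 lower, with a median of 0.35, where 2.84% of all probe sets were called. At 10 weeks 0 were called, against 0.306% of all, with a median of 0.13. Over both ages the same 3 were called higher and 0 lower, against 4.47% of all, with a median of 0.27. All 3 bind plasminogen or form its receptor on the cell surface. S100a10, which with Anxa2 forms a cell-surface receptor for plasminogen and Plat, gave 2687, 3805 and 3733 in diabetic rats at 20 weeks, against 1965, 1677 and 1941 in nondiabetic rats. Its difference of 0.86 ± 0.15 (adjusted p = 0.00951) was called in all 23 alternatives. At 10 weeks its difference was 0.01 ± 0.15, and the change with age was 0.85 ± 0.21 with an adjusted p of 0.4. Over both ages S100a10 differed by 0.43 ± 0.10 (adjusted p = 0.0345), called in 11 of 22 alternatives. Anxa2 differed by 0.26 ± 0.06 over both ages (adjusted p = 0.0415), called in 7 of 22. Anxa2 itself differed by 0.43 ± 0.09 at 20 weeks (adjusted p = 0.0278), a call lost without nondiabetic replicate 2 or 3 (0.104 and 0.0766) or diabetic replicate 1, 2 or 3 of that age (0.0531, 0.106 and 0.0525), under median scaling (0.06), without intensity trend (0.0763) and in a fit of the 2 groups (0.0946). Plgrkt, a membrane receptor of plasminogen, was higher in diabetic rats over both ages together. Its signals were 889, 781 and 852 in diabetic and 589.6, 596 and 680.1 in nondiabetic rats at 10 weeks, and 814, 841 and 878 in diabetic and 691, 574 and 617 in nondiabetic rats at 20 weeks. Its mean difference of 0.43 ± 0.07 (adjusted p = 0.00552) was called in all 22 alternatives, and its 20-week call (adjusted p = 0.0488) was made in 6 of 23. It was lost there without any 1 array except nondiabetic replicate 3 at 10 weeks and nondiabetic replicate 1 at 20 weeks, with adjusted p of 0.0575 to 0.179.

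Of 24 other metalloproteinases and inhibitors, 16 were tested, and 1 was called lower at 20 weeks and over both ages, with list medians of -0.08 and -0.05, where 2.84% and 4.47% of all probe sets were called. This was Mmp11, stromelysin 3. Its signals were 290.4, 339 and 465 in diabetic rats and 505, 476 and 492 in nondiabetic rats at 10 weeks, and 241, 323 and 321 in diabetic rats and 466, 610.3 and 553 in nondiabetic rats at 20 weeks. The diabetic arrays lay below the nondiabetic ones at each age, as for 2.59% of probe sets. The mean difference of -0.67 ± 0.13 (adjusted p = 0.011) was called in all 22 alternatives. At 20 weeks it was -0.89 ± 0.18 (adjusted p = 0.0239), a call lost without any diabetic array of that age (0.0782, 0.052 and 0.0563 without replicates 1, 2 and 3) or nondiabetic replicate 2 or 3 (0.0945 and 0.0619), or without intensity trend (0.0545).

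The structural matrix list held 40 genes, of which 34 were tested. At 20 weeks 2 were called higher, Spp1 and Fn1, and 1 lower, P4ha1, with a median of 0.03, where 2.84% of all probe sets were called. Over both ages 3 were called higher and 0 lower, with a median of 0.00, against 4.47% of all, so most of the list did not pass in either comparison. Col1a1, a chain of fibrillar type I collagen, differed by 0.25 ± 0.17 over both ages (adjusted p = 0.501) and Col4a1, a chain of basement membrane collagen, by -0.11 ± 0.12 (adjusted p = 0.708). P4ha1, a prolyl hydroxylase that collagen needs to fold, gave 1063, 1217 and 1335 in diabetic rats and 1635, 1738 and 1493 in nondiabetic rats at 20 weeks. The groups did not overlap, as for 10.9% of probe sets in this direction, and the difference was -0.43 ± 0.10 (adjusted p = 0.0347). That call was lost without nondiabetic replicate 1 or 2 (0.0766 and 0.133) or diabetic replicate 1 or 2 of that age (0.108 and 0.0924), without diabetic replicate 3 at 10 weeks (0.052), without both doubted arrays (0.0995), without intensity trend (0.0888) and in a fit of the 2 groups (0.119).

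The 3 called over both ages were Spp1, Lox and Fn1. Spp1, the secreted phosphoprotein osteopontin, differed by 1.15 ± 0.18 (adjusted p = 0.00384), called in all 22 alternatives. Its 20-week difference of 1.34 ± 0.26 (adjusted p = 0.0191) was called in 18 of 23, and not without nondiabetic replicate 2 (0.0758) or diabetic replicate 2 or 3 of that age (0.0765 and 0.0829), without intensity trend (0.0608) or in a fit of the 2 groups (0.0628). Lox, which like Tgm2 cross-links matrix proteins, gave 188, 264 and 269 in diabetic rats and 131, 107 and 118 in nondiabetic rats at 10 weeks, and 191, 383 and 409.8 in diabetic rats and 204, 144 and 159 in nondiabetic rats at 20 weeks. Its mean difference of 0.95 ± 0.20 (adjusted p = 0.0165) was called in all 21 alternatives run for it, and its second probe set gave 1.22 ± 0.24 (adjusted p = 0.0135). Of these cross-linking enzymes, Lox was thus higher and Tgm2 lower over both ages. Fibronectin, Fn1, differed by 0.55 ± 0.12 (adjusted p = 0.0227), a call lost without nondiabetic replicate 2 or diabetic replicate 1 at 10 weeks (0.0553 and 0.0566) or diabetic replicate 1 or 2 at 20 weeks (0.0541 and 0.0561), or without intensity trend (0.055). Its 20-week call (0.73 ± 0.17, adjusted p = 0.041) was made in 8 of 23 alternatives, and was lost without any 1 array except nondiabetic replicate 1 and diabetic replicate 3 of that age (0.0506 to 0.151).

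Of 20 other CCN proteins, transglutaminases and matrix receptors, 15 were tested, and 1 was called higher and 1 lower over both ages, with a median of 0.00, where 4.47% of all probe sets were called. The transglutaminase Tgm3 differed by 0.61 ± 0.15 (adjusted p = 0.039) and the heparan sulfate receptor Sdc4 by -0.21 ± 0.05 (adjusted p = 0.0418). Each was called in few alternatives, 7 of 21 and 6 of 22. The Tgm3 call was lost without any 1 array except nondiabetic replicate 1 at 10 weeks and nondiabetic replicate 3 at 20 weeks (adjusted p 0.056 to 0.0971). The Sdc4 call was lost without any 1 array except nondiabetic replicate 3 and diabetic replicate 3 at 20 weeks (0.0515 to 0.0985). The CCN relatives Ccn3 and Ccn4 differed by 0.03 ± 0.24 and 0.30 ± 0.30 over both ages and were not called.

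Targets of mechanical signalling, serum response factor and YAP numbered 22, of which 20 were tested. At 20 weeks 3 were called higher and 0 lower, with a median of 0.27, where 2.84% of all probe sets were called. At 10 weeks 0 were called, against 0.306% of all, with a median of -0.05. Amotl2, a YAP target that in turn restrains YAP, gave 3557, 3483 and 3580.5 in diabetic rats at 20 weeks, against 1972, 2037 and 1548 in nondiabetic rats. As for Ccn2, every 20-week diabetic array lay above the other 9. The Amotl2 difference of 0.94 ± 0.18 (adjusted p = 0.0153) was called in 20 of 23 alternatives, the exceptions being a variance without intensity trend (0.0552) and fits without diabetic replicate 2 or 3 of that age (0.0522 and 0.0583). Fos, an immediate early gene, gave 211, 174 and 142 in diabetic rats and 82.2, 74.5 and 55.6 in nondiabetic rats, a difference of 1.31 ± 0.28 (adjusted p = 0.0301). Its call was lost without nondiabetic replicate 2 or 3 (0.078 and 0.081) or diabetic replicate 1, 2 or 3 of that age (0.107, 0.0954 and 0.0583), without both doubted arrays (0.0626), with no filter (0.0695) and in a fit of the 2 groups (0.0616). Klf6, an early response transcription factor, differed by 0.74 ± 0.16 by its brightest probe set (adjusted p = 0.0262), and by 0.30 ± 0.17 and 0.50 ± 0.36 by its others, which were not called. That Klf6 call was lost without nondiabetic replicate 2 or 3 (0.101 and 0.0771) or diabetic replicate 2 or 3 of that age (0.104 and 0.0803), without intensity trend (0.0622) and in a fit of the 2 groups (0.0796). Ankrd1, another classical YAP target, differed by -0.05 ± 0.45 at 20 weeks and was not called. None of the 20 passed the interaction test, so a difference between the ages was not called for this list either.

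**Figure D5:**
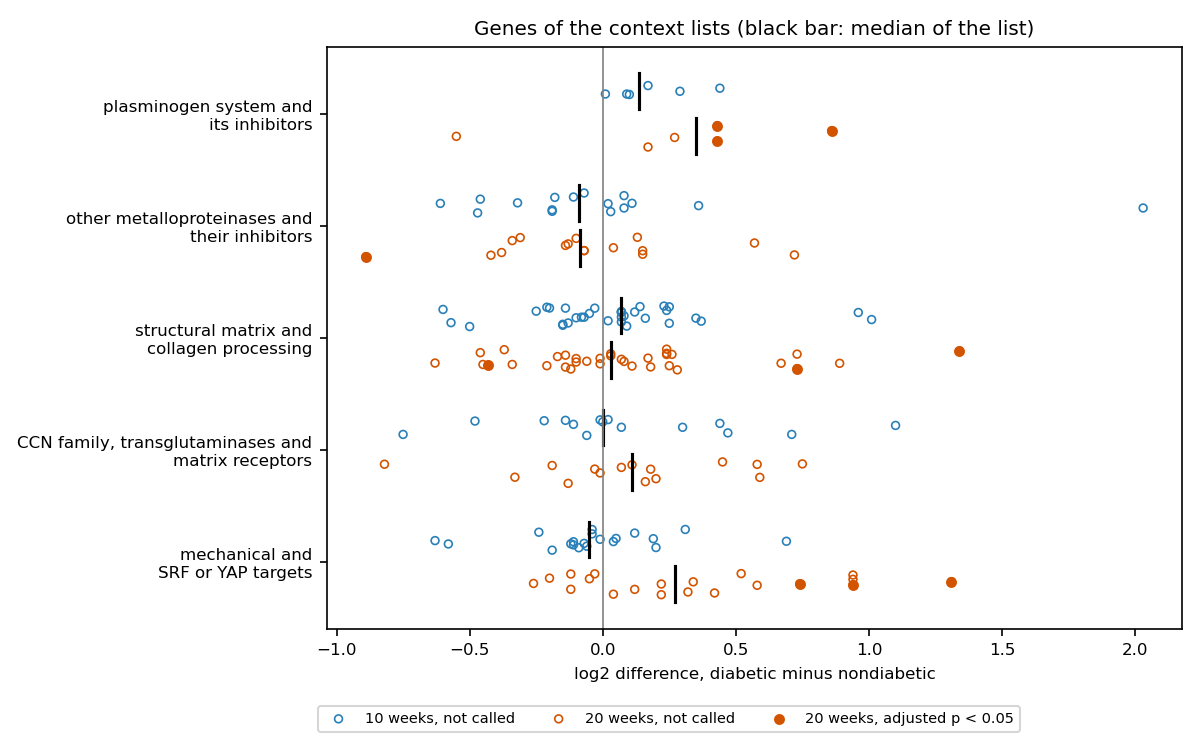
Log2 difference of diabetic minus nondiabetic rats (x axis) for each tested gene of 5 lists, 10 weeks above 20 weeks in each list; circles are genes, filled where the adjusted p was under 0.05, and black bars are list medians. Filled symbols occur at 20 weeks alone, and the medians of the plasminogen and mechanical lists lie at 0.35 and 0.27 there.

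Summed markers of fat and of macrophages and leukocytes were higher on every diabetic array than on any nondiabetic array at 20 weeks. Of single probe sets, 10.1% lay higher in this way. The summed signal of 8 measured of 9 mesangial, fibroblast and smooth muscle markers was 5609.9 to 6967 in diabetic arrays and 4588 to 5855 in nondiabetic arrays at 20 weeks, which overlapped, with Cspg4 and Cnn1 below the dim limit. At 10 weeks it was 5492 to 5644 in diabetic and 5329 to 5438 in nondiabetic arrays, without overlap. Of single probe sets, 7.47% lay so at that age. Of the 6 tested, 0 were called at either age. For all 8 macrophage and leukocyte markers the summed signal at 20 weeks was 2186 to 2857 in diabetic and 1722 to 2046 in nondiabetic arrays. Itgam, Cd163 and Cd3e were below the limit. At 10 weeks the sums were 1872 to 2311 in diabetic and 1668 to 2149 in nondiabetic arrays, which overlapped. Of the 5 tested, 4 were above 0 at 20 weeks and 0 were called. Over both ages 1 of the 5 was called higher, where 4.47% of all probe sets were called. For 5 fat markers the summed signal was 579 to 907 in diabetic and 291 to 348 in nondiabetic arrays at 20 weeks, and 474 to 656 in diabetic and 261 to 365 in nondiabetic arrays at 10 weeks, with Plin1, Lep and Cfd below the limit. Of the 2 fat markers tested, 0 were called at 20 weeks. Fabp4, a fatty acid carrier of fat cells, differed by 2.21 ± 1.11 at 20 weeks (adjusted p = 0.341). The part of these markers in the results on Ccn2, Spp1, Lox and Fn1 was not tested. The proximal tubule markers that define cortex were bright in every group, with summed signals of 82969.7 to 87059 in diabetic and 79232 to 93006 in nondiabetic arrays at 20 weeks.

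The genes whose log2 signals ran most like those of Ccn2 over the 12 arrays, among 10489 genes compared, were Car3, Celf1, Kansl1, Serpinb6a and Cidea, with Pearson correlations of 0.927, 0.926, 0.923, 0.91 and 0.909. Car3, a carbonic anhydrase abundant in muscle and fat, averaged 317 ± 169 in diabetic and 151 ± 66.3 in nondiabetic rats at 20 weeks (SD, n = 3), and 67.3 ± 17 in diabetic and 61.5 ± 12.6 in nondiabetic rats at 10 weeks. Cidea, a lipid droplet protein, averaged 221 ± 30.5 in diabetic and 136 ± 6.27 in nondiabetic rats at 20 weeks. All 5 genes had their highest mean in 20-week diabetic rats, as Ccn2 did. They were chosen by their correlation with Ccn2, so this likeness comes with the choice. Car3 averaged under the dim limit of 70.9 in both 10-week groups and passed the filter through its 20-week signals. For Timp1 the closest genes were Cd44, Mgp, Nhp2, Tnrc6c and Tifa, at 0.908, 0.906, 0.904, 0.9 and 0.895. Cd44, a receptor for hyaluronan and osteopontin, averaged 316 ± 85.2 in diabetic and 188 ± 39.9 in nondiabetic rats at 20 weeks, and Mgp, matrix Gla protein, 14385 ± 3797 in diabetic and 10527 ± 2245 in nondiabetic rats. Arrays of a group share their treatment and the ranks moved between settings: over 16 of them Car3 ranked between 1 and 8 and Celf1 between 1 and 113. Cidea was among the first 5 in 5 of the 16 and Serpinb6a in 3. For Timp1, Cd44 ranked between 1 and 13, Mgp between 1 and 23, Tifa between 1 and 35, Nhp2 between 1 and 36 and Tnrc6c between 1 and 53.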

How the data were processed

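Renal cortex RNA of 12 samples (4 groups of 3) was hybridised as biotin-labelled cRNA to 1-colour arrays, per the labels' protocols. The deposited values are linear probe-set intensities made with GCOS, per the submitters' processing notes. The software version is not given in the sources used here, and neither are the summary method and detection calls. Each array's mean deposited intensity, after trimming 2% at each end, was 500.2, so the authors had scaled the arrays and differences are relative to the other transcripts on an array. Values below 1 (424) were set to 1 before log2. After 57 control probe sets were left out, the dimmest 40% by mean log2 signal were dropped (geometric mean signal under 70.9), and 18625 were tested.

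Symbols came from the array annotation, updated through the RefSeq gene table, which gave names alone; promoters are RefSeq, GRCr8, and windows were given for 5 of the 9 genes. limma 3.58.1 in R 4.3.3 fitted 4 group means (8 residual degrees of freedom; eBayes with intensity trend), with two-sided tests of diabetes at 10 and 20 weeks, its mean over both ages, its interaction with age, and age in nondiabetic rats; age in diabetic rats was added later. Adjustment was Benjamini-Hochberg over all probe sets tested. Array correlations lay between 0.941 and 0.976, and the number of arrays limits the precision. The model was also run on simulated data with independent noise. These lack the quality differences between the real arrays, so no conclusion is drawn from them here. Alternatives were quantile and median scaling, no filter or a filter of 60%, an offset of 16, a variance without trend, array weights, fits of 2 groups, a replicate block, the Gapdh ratio as covariate, each array left out, and both doubted arrays left out.

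Named genes are all member probe sets, at most 4 called genes per context list and comparison, and the 5 genes most correlated with Ccn2 and with Timp1; Col1a1, Col4a1, Ccn3, Ccn4, Ankrd1, Fabp4, Pecam1, Vwf, Nphs1 and Ptpro were named after their values were seen. The members and lists were chosen with earlier results of these data known.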

Additional observations from a re-analysis of the deposited data

How the results depend on the processing

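Of 1484 alternative values of the 66 differences of the probe sets of these genes (23 settings), 33 lost a call, 2 gained one and 0 reversed a called difference; 50 values of 20 uncalled differences changed sign. At 20 weeks the count of called probe sets of these genes was 2. It was 1 under median scaling, array weights, the Gapdh covariate or without both doubted arrays, 0 with no filter or no intensity trend, and 3 in the fit of the 2 groups, where the dimmer Tgm2 probe set was also called (adjusted p = 0.0256). Leaving out 1 array gave between 0 and 3 calls. For the mean over both ages the count of 2 became 1 without intensity trend or without both doubted arrays, and stayed 2 without any single array. For age in diabetic rats the count of 1 became 0 without intensity trend or with the Gapdh covariate, and 0 to 1 with 1 array left out. The cause of these changes was not tested.

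The replicate numbers are not stated to mark a litter or day, so they were not taken as pairs. Deviations from the group mean correlated at 0.022, 0.149 and 0.13 between same-numbered diabetic and nondiabetic arrays at 10 weeks. At 20 weeks the values were -0.043, 0.061 and 0.141. Different-numbered arrays gave -0.195 to 0.071 at 10 weeks and -0.132 to 0.08 at 20 weeks. These correlations do not exclude a pairing. With the replicate number as a block, 1 probe set was called at 20 weeks, Tgm2, and Ccn2 was not (0.67, adjusted p = 0.0703). Among the listed genes the block also ended the 20-week calls of P4ha1 (0.0585), Fos (0.0548) and Plgrkt (0.0619) and the calls over both ages of Anxa2 (0.0564), Sdc4 (0.0538) and Tgm3 (0.0578).

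Over all probe sets the counts also moved: 57 at 10 weeks ran between 5 and 115 with 1 array left out and 7 and 70 in the other settings; 529 at 20 weeks between 194 and 520 and 191 and 567; 833 over both ages between 525 and 823 and 490 and 871; and 123 for age in diabetic rats between 7 and 118 and 5 and 239. Fits of 2 groups give no mean or interaction. The number of arrays limits these results, as does, for the dimmer Mmp2 probe set, a signal below the dim limit.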
